A study of Homo sapiens with 4 samples.

Results

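The genes described here build adherens junctions, tight junctions and the apicobasal polarity complexes of epithelial cells, together with a few regulators and surface proteins of the epithelial state. They form a list of 42 genes, and a gene was measured through probe sets that carry its symbol alone. Such probe sets existed for 39 of the 42, 103 in all, out of 19775 genes measured on the arrays. CTNND1 (p120-catenin), F11R (a junctional adhesion molecule) and ESRP2 (an epithelial splicing factor) were not analysed here, since no probe set carried 1 of these symbols alone. Each gene was read from its brightest probe set, and its other probe sets served as a check. Of the 39 genes, 37 reached the filter level of 4.77 on at least 1 array, as did 15082 genes in all, and every count below is over these 37 unless stated.

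The cells were MDA-MB-231, a line from a human breast carcinoma that lacks oestrogen and progesterone receptors and has a mesenchymal-like form. The study lowered ZEB2, a transcriptional repressor, in 2 ways and used 1 Affymetrix U133 Plus 2 array per group, 4 arrays in all. In the stable pair, cells transduced with a ZEB2 short hairpin RNA (shRNA ZEB2 knockdown) were set beside cells transduced with the vector pLVTH (shRNA control). In the transient pair, cells transfected with a pool of small interfering RNAs against ZEB2 at 20 nM (siRNA ZEB2 knockdown) were set beside cells given siRNA against luciferase at the same dose (siRNA control). Transfected cells were washed at 24 hours and collected 48 hours later. Whether each transduced line was a clone or a mixed population is not given in the sources used here. Levels are RMA log2 values, in which 1 unit is 2-fold, and a difference is always knockdown minus its own control, or siRNA control minus shRNA control. Each group being 1 array, differences within a pair carry no replicate check.

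E-cadherin, the product of CDH1, joins neighbouring epithelial cells and is tied to actin through beta-catenin and alpha-catenin. Claudins and occludin seal the space above these contacts, and the Crumbs, Par and Scribble complexes set the apical and basal sides. ZEB2 and its paralog ZEB1 bind E-box sequences and repress CDH1 and other epithelial genes, and carcinoma lines with a mesenchymal form generally hold little E-cadherin.

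ZEB2 itself read 3.52 in the shRNA ZEB2 knockdown, against 6.12 in the shRNA control, and 3.51 in the siRNA ZEB2 knockdown, against 6.56 in the siRNA control. Both knockdown arrays held the low values, under the filter level, as their labels say. Of 6 genes listed as high in this line, VIM, CD44, AXL, CAV1 and LOXL2 read between 11.51 and 14.12 on the 4 arrays, while SPARC lay between 4.45 and 4.88. Of 3 receptor genes listed as low or absent in this line, PGR was under the filter level on every array, while ESR1 read 6.08 to 6.54 and ERBB2 7.83 to 7.97, both above it. The leukocyte gene PTPRC was under it too, between 3.44 and 3.87, whereas the monocyte marker CD14 read 4.98 and 5.21 on the shRNA arrays and 6.94 and 7.30 on the siRNA arrays. In cultured cells read in bulk, fewer cells with a transcript and less of it per cell cannot be told apart.

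**Figure D1:**
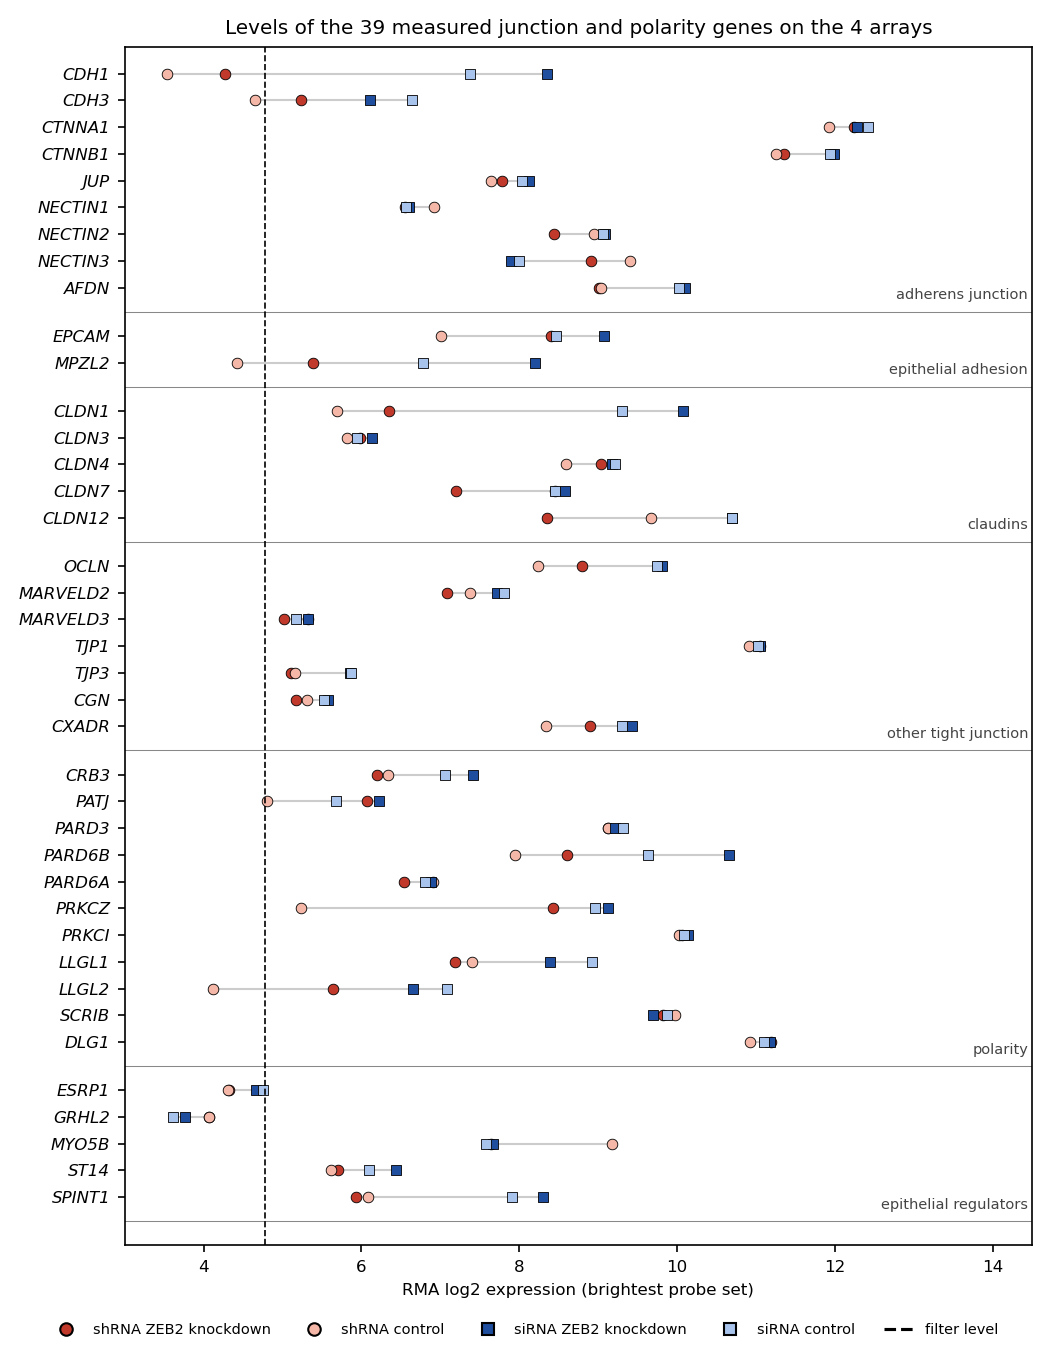
RMA log2 level (x axis) of each of the 39 measured genes on the 4 arrays, by role, with circles for the shRNA arrays, squares for the siRNA arrays, dark symbols for ZEB2 knockdowns, light symbols for controls and a dashed line at the filter level of 4.77. CDH1, CLDN1, MPZL2 and SPINT1 separate the siRNA arrays from the shRNA arrays, PRKCZ is low on the shRNA control alone, and TJP1 and PRKCI hardly differ.

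The surface adhesion genes MPZL2 and EPCAM were higher in both knockdowns by their brightest probe sets. MPZL2, an immunoglobulin-type adhesion protein of epithelia, read 5.39 in the shRNA ZEB2 knockdown, against 4.42 in the shRNA control, and 8.20 in the siRNA ZEB2 knockdown, against 6.78 in the siRNA control. Its differences were 0.97 and 1.42, and the second was the highest of all 15082 genes in the transient pair. EPCAM, the epithelial cell adhesion molecule, read 8.40 in the shRNA ZEB2 knockdown, against 7.01 in the shRNA control, and 9.07 in the siRNA ZEB2 knockdown, against 8.47 in the siRNA control. The shRNA difference of EPCAM, 1.39, was larger than its siRNA difference of 0.60, and the gap was not tested. EPCAM has 1 probe set. MPZL2 has 3, of which the second brightest differed by -0.04 in the stable pair and 0.80 in the transient pair and the dimmest, under the filter level on every array, by 0.58 in both. The stable difference of MPZL2 was thus not shared by its second probe set.

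CDH1 was also higher in both knockdowns, but from very different levels. It read 4.26 in the shRNA ZEB2 knockdown, against 3.54 in the shRNA control, both under the filter level. On the siRNA arrays it read 8.35 in the knockdown, against 7.37 in the control. The differences were 0.73 and 0.98, ranks 738 and 9 from the highest among all genes kept. The second CDH1 probe set stayed under the filter level on every array, between 4.20 and 4.69, and differed by 0.16 and 0.45. CDH1 thus reached the filter level on the siRNA arrays alone, in knockdown and control alike.

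By their brightest probe sets, the catenins and afadin differed little, the nectins were lower in the stable pair, and CDH3 differed in opposite directions. CTNNB1, which encodes beta-catenin, read 11.36 in the shRNA ZEB2 knockdown and 11.26 in its control, and 11.99 in the siRNA ZEB2 knockdown and 11.94 in its control. CTNNA1, for alpha-catenin, read 12.24 and 11.92 in the same order on the shRNA arrays, and 12.28 and 12.41 on the siRNA arrays. JUP, for plakoglobin, and AFDN, the afadin that links nectins to actin, differed by 0.13 and -0.03 in the stable pair and by 0.10 and 0.08 in the transient pair. Other AFDN probe sets at the filter level differed by 0.06, 0.79 and 0.46 in the stable pair and by -0.20, 0.21 and 0.35 in the transient pair. The 3 nectins, immunoglobulin-type adhesion receptors, were lower in the stable pair, by -0.36 for NECTIN1, -0.51 for NECTIN2 and -0.49 for NECTIN3, and lay between -0.10 and 0.04 in the transient pair. NECTIN3 read 8.92 in the shRNA ZEB2 knockdown, against 9.41 in the shRNA control, and 7.90 in the siRNA ZEB2 knockdown, against 7.997 in the siRNA control. None of these nectin differences reached 1.5-fold, and the other probe sets of these genes varied. The second NECTIN3 probe set read 7.71 in the shRNA ZEB2 knockdown, against 8.81 in the shRNA control, a difference of -1.10. For NECTIN1 the other 3 differed by -0.97, 0.28 and 0.18 in the stable pair, and for NECTIN2 the other 3 lay between -0.07 and 0.06. CDH3, which encodes P-cadherin, a cadherin of basal epithelial cells, read 5.23 in the shRNA ZEB2 knockdown, against 4.65 in the shRNA control. It read 6.11 in the siRNA ZEB2 knockdown, against 6.65 in the siRNA control, so its 2 differences had opposite signs.

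Claudins, the membrane strands of tight junctions, split in the stable pair. CLDN1 read 6.35 in the shRNA ZEB2 knockdown, against 5.69 in the shRNA control, and 10.08 in the siRNA ZEB2 knockdown, against 9.31 in the siRNA control. Both of its probe sets were higher in both knockdowns, the second by 0.51 and 0.54. CLDN7 read 7.20 in the shRNA ZEB2 knockdown, against 8.46 in the shRNA control, with 8.57 and 8.45 on the siRNA knockdown and control arrays. The knockdown array alone was low, and the other 3 lay within 0.13 of each other. CLDN12 read 8.36 in the shRNA ZEB2 knockdown, against 9.67 in the shRNA control, and 10.69 in the siRNA ZEB2 knockdown, against 10.70 in the siRNA control. The differences of CLDN7 and CLDN12 were -1.25 and -1.32 in the stable pair and 0.13 and -0.0083 in the transient pair, and each gene has 1 probe set. CLDN3 differed by 0.16 and 0.19, and CLDN4 by 0.44 and -0.05.

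Tight junction genes other than claudins stayed within 1.5-fold in both knockdowns by their brightest probe sets, all 7 measured. OCLN, for occludin, read 8.79 in the shRNA ZEB2 knockdown, against 8.23 in the shRNA control, and 9.81 in the siRNA ZEB2 knockdown, against 9.75 in the siRNA control. All 4 OCLN probe sets were higher in the stable pair, by 0.23 to 0.70. CXADR, a junctional adhesion receptor for coxsackieviruses and adenoviruses, was higher in the stable pair by 0.56 to 0.62 over its 4 probe sets. TJP1, the scaffold ZO-1, was level at 11.05 in the shRNA ZEB2 knockdown and 10.91 in its control, and 11.05 in the siRNA ZEB2 knockdown and 11.03 in its control. The remaining 4, the tricellulin gene MARVELD2 with MARVELD3, TJP3 and the cingulin gene CGN, differed by -0.31 to -0.05 in the stable pair and by -0.09 to 0.15 in the transient pair.

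Polarity genes held the largest knockdown difference among the members. PRKCZ, an atypical protein kinase C of the Par complex, read 8.43 in the shRNA ZEB2 knockdown, against 5.24 in the shRNA control, a 9.15-fold difference that ranked 21 from the highest. On the siRNA arrays it read 9.13 in the knockdown and 8.96 in the control. The shRNA control alone was low, and PRKCZ has 1 probe set. LLGL2, a basolateral partner of that complex, showed the same order of the shRNA arrays, at 5.64 in the knockdown, against 4.12 in the control. In the transient pair LLGL2 read 6.66 in the knockdown, against 7.09 in the control. Its other probe set differed by -0.04 and -0.61, so the stable difference of 1.52 was not shared by it. PATJ, a scaffold of the Crumbs complex, read 6.07 in the shRNA ZEB2 knockdown, against 4.80 in the shRNA control, and 6.22 in the siRNA ZEB2 knockdown, against 5.68 in the siRNA control. The other 3 PATJ probe sets at the filter level differed by -0.05, 0.04 and 0.28 in the stable pair. PARD6B, an adaptor of the Par complex, read 8.61 in the shRNA ZEB2 knockdown, against 7.95 in the shRNA control, and 10.65 in the siRNA ZEB2 knockdown, against 9.63 in the siRNA control. The PARD6B difference in the transient pair, 1.02, ranked 6 among all genes. Its other 2 probe sets differed there by 0.33 and -0.14, and in the stable pair by 1.14 and 0.54.

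The other polarity genes were flat or small. CRB3, the epithelial Crumbs protein, read 6.19 in the shRNA ZEB2 knockdown, against 6.34 in the shRNA control, and 7.42 in the siRNA ZEB2 knockdown, against 7.06 in the siRNA control. LLGL1, the paralog of LLGL2, read 7.18 in the shRNA ZEB2 knockdown, against 7.40 in the shRNA control, and 8.39 in the siRNA ZEB2 knockdown, against 8.92 in the siRNA control. It was lower in both pairs, with differences of -0.22 and -0.53. Over both pairs the remaining 2 LLGL1 probe sets ranged from -0.19 to 0.20. PARD3, PRKCI, SCRIB, DLG1 and PARD6A, further parts of the Par and Scribble complexes, differed by -0.36 to 0.27 in the stable pair and by -0.17 to 0.07 in the transient pair.

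Among epithelial regulators, GRHL2, a transcription factor that maintains epithelial identity, and ESRP1, an epithelial splicing factor, did not reach the filter level on any array. GRHL2 read 4.07 on both shRNA arrays and 3.76 and 3.61 on the siRNA knockdown and control arrays. ESRP1 read 4.32 and 4.31 on the shRNA knockdown and control arrays, and 4.66 and 4.75 on the siRNA ones. Neither gene was detectable above the filter level with ZEB2 low. MYO5B, the motor of apical recycling vesicles, read 7.64 in the shRNA ZEB2 knockdown, against 9.18 in the shRNA control, with 7.67 and 7.58 on the siRNA knockdown and control arrays. Here the shRNA control was the single high array. A second MYO5B probe set showed the same, at 3.74 in the shRNA ZEB2 knockdown, against 6.02 in the shRNA control. ST14, which encodes the surface protease matriptase, and SPINT1, which encodes its inhibitor, differed by 0.09 and -0.16 in the stable pair and by 0.34 and 0.39 in the transient pair. SPINT1 read 5.93 in the shRNA ZEB2 knockdown, against 6.08 in the shRNA control, and 8.30 in the siRNA ZEB2 knockdown, against 7.91 in the siRNA control.

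**Figure D2:**
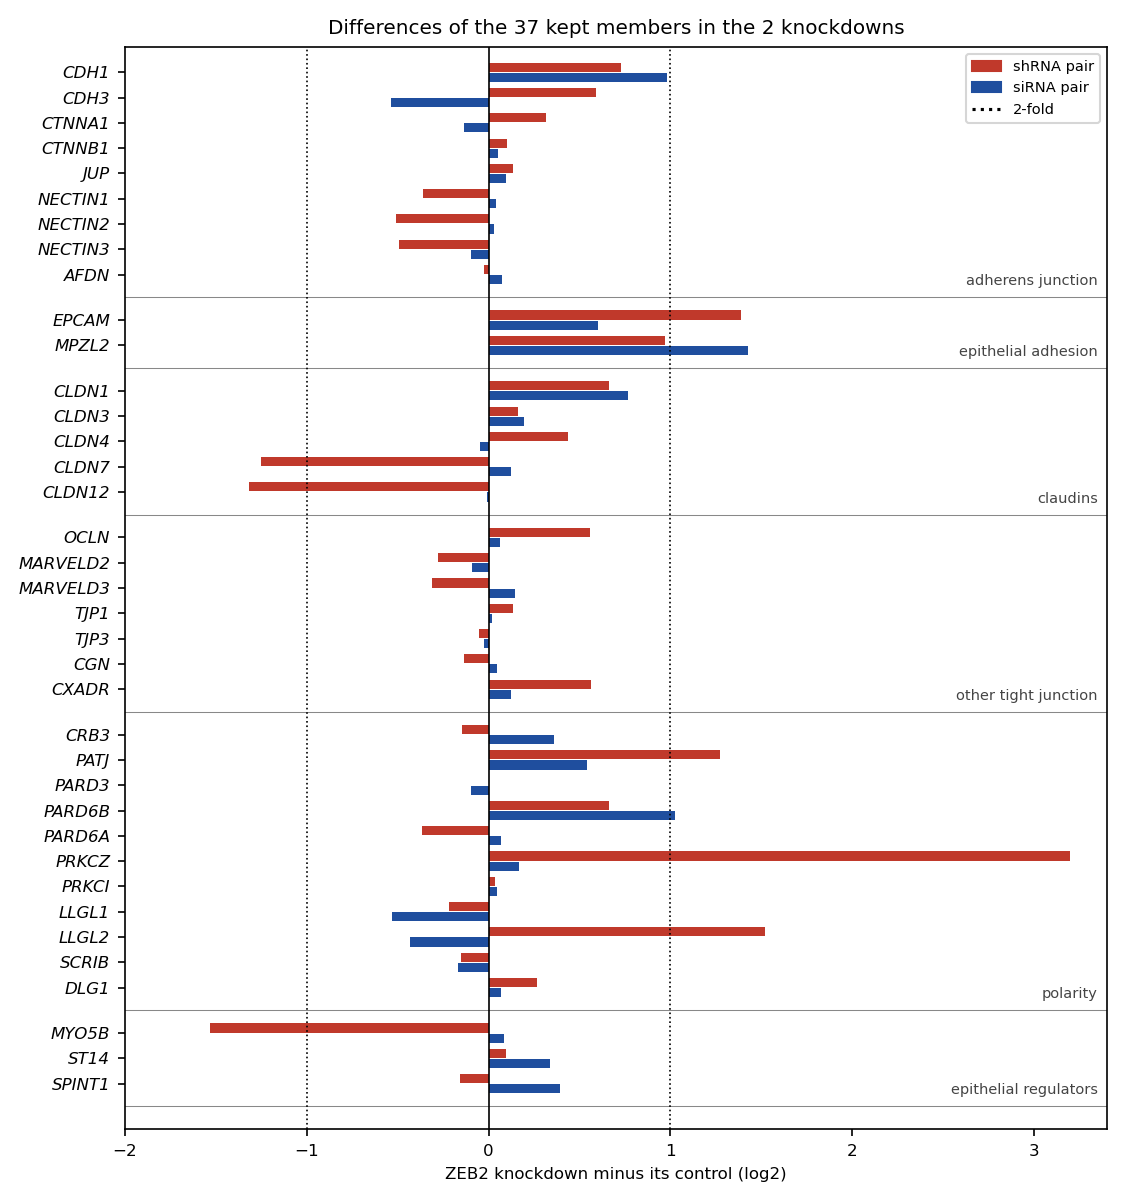
Difference between each ZEB2 knockdown and its own control (x axis, log2) for the 37 genes kept, by role, in red for the stable (shRNA) pair and blue for the transient (siRNA) pair, with dotted lines at 2-fold. CDH1, EPCAM, MPZL2, CLDN1, PATJ and PARD6B have both bars above 0.5, while PRKCZ, LLGL2, CLDN7, CLDN12 and MYO5B are past 2-fold in the stable pair and within 1.5-fold in the transient pair.

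Over the 37 genes, the stable pair had 4 past 2-fold upward (EPCAM, PATJ, PRKCZ and LLGL2), or 10.8%, against 2.39% of all genes kept. Another 3 were at least 2-fold lower (CLDN7, CLDN12 and MYO5B), or 8.11%, against 2.08%. Those on the higher side of 0 numbered 21, or 56.8%, against 46.6% of all genes, and the median difference was 0.093, against -0.024. In the transient pair 2 members passed 2-fold upward (MPZL2 and PARD6B), where 0.0464% of all genes were, and 0 were 2-fold lower, where 0.126% were. The transient pair had 26 of the 37 above 0, or 70.3%, against 46% of all genes, with a median of 0.070, against -0.018. The list was drawn up with earlier results of these arrays known, so these shares describe it and test nothing. The upward count of the stable pair also depends on the choice of probe set. When all probe sets of a gene were averaged, 35 members were kept, and PATJ was not among them. Only EPCAM and PRKCZ then passed 2-fold upward in the stable pair, LLGL2 differed by 0.74, and 3 members still passed 2-fold downward.

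Differences of at least 1.5-fold common to both knockdowns came from a few genes, while a shared direction of any size was more widespread. At least 1.5-fold higher in both were CDH1, EPCAM, MPZL2, CLDN1 and PARD6B, 5 of 37 or 13.5%, against 0.126% of all genes. CDH1 counts here although both of its shRNA values, and MPZL2 although its shRNA control value, lay under the filter level. In both pairs 0 members were 1.5-fold lower, against 0.332%. These 5 were also the only members at 1.5-fold in the transient pair. With the mean of a gene's probe sets in place of the brightest, 2 members (EPCAM and CLDN1) were 1.5-fold higher in both, and 0 were at 2-fold in the transient pair. PATJ, at 1.27 and 0.54, lay just short in the transient pair, whose threshold is 0.585. In all, 16 members were above 0 in both pairs, or 43.2%, against 20.6% of all genes. Below 0 in both were 6, or 16.2%, against 27.8%, and 15 had opposite signs, or 40.5%, against 51.1%. The pairs share no array, and across the 37 genes their differences had Pearson r = 0.267 and Spearman rho = 0.32, against 0.00191 and -0.0243 across all genes, as a description. With both pairs within 1.5-fold there were 25 members, or 67.6%, against 84% of all genes.

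**Figure D3:**
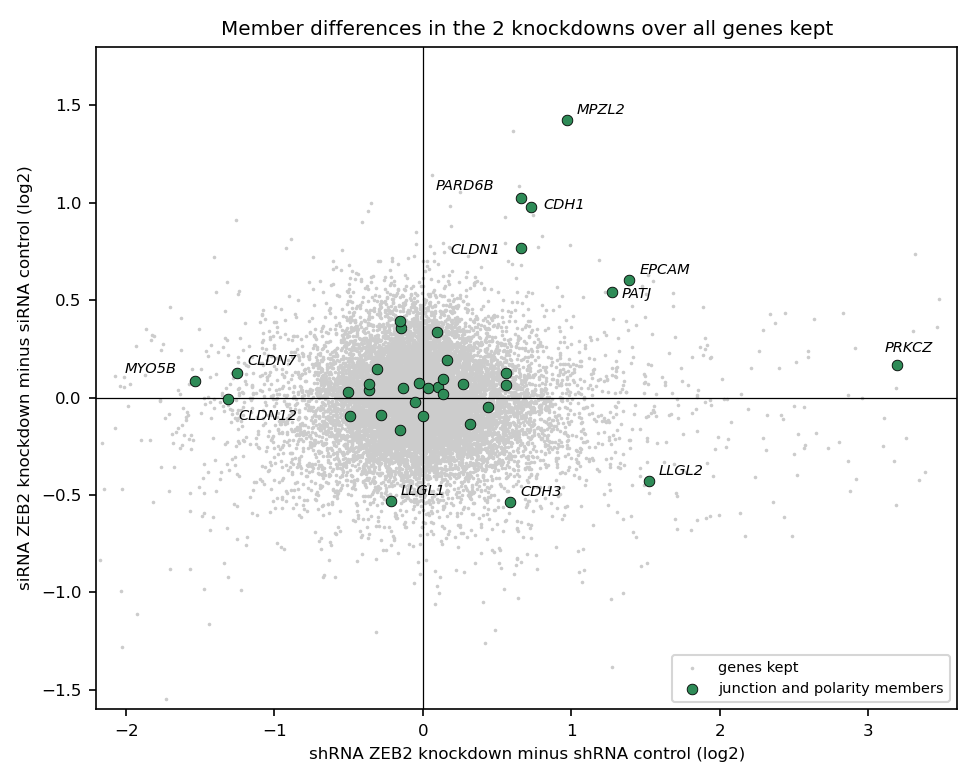
Difference in the stable (shRNA) pair (x axis, log2) against that in the transient (siRNA) pair (y axis, log2), with the 37 members in green over all genes kept in grey, of which 48 lie outside the axes. MPZL2, PARD6B, CDH1, CLDN1, EPCAM and PATJ stand at the upper right, LLGL2 and CDH3 at the lower right, and most members in the central cloud.

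A knockdown effect common to both methods was tested in limma on the 4 arrays, blocking on method, which leaves 1 residual degree of freedom. Error is measured as the gap between the methods, moderated over all genes, and not between repeated cultures. MPZL2 had the smallest unadjusted p of the members, 0.00348 in limma, with a mean difference of 1.196 ± 0.187 (SE) and higher values in both pairs. CDH1 had 0.85 ± 0.16 with an unadjusted p of 0.00635 in limma, PARD6B 0.84 ± 0.19 with 0.0121, and CLDN1 0.72 ± 0.16 with 0.0129. The CDH1 value averages the siRNA difference with one between shRNA arrays that are both under the filter level. PATJ and EPCAM followed at 0.0195 and 0.0197. These 6 of 37 members had an unadjusted limma p under 0.05, as did 384 or 2.55% of all genes. After Benjamini-Hochberg adjustment over all genes in limma, the smallest adjusted p of the members was 0.971, and 0 members passed, as did 0% of all genes. ZEB2, the gene both knockdowns target, was among those that did not pass.

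The members differed more between the control arrays, both of which keep ZEB2, than in either knockdown. The standard deviation of the differences over the 37 genes was 1.25 between the controls, 0.84 in the stable pair and 0.401 in the transient pair. Over all genes the same values were 0.823, 0.499 and 0.235. At least 2-fold higher in the siRNA control were 12 members, or 32.4%, against 10.8% of all genes, and 2 were at least 2-fold lower, or 5.41%, against 4.99%. Above 0 were 30 members, or 81.1%, against 54% of all genes, and the median was 0.62, against 0.056. CDH1 was 3.83 higher, at 7.37 in the siRNA control, against 3.54 in the shRNA control, a gap larger than its difference in either knockdown. PRKCZ was higher by 3.72, CLDN1 by 3.62, LLGL2 by 2.96, MPZL2 by 2.36 and CDH3 by 2.00. In the shRNA control CDH1, LLGL2, MPZL2 and CDH3 were under the filter level, at 3.54, 4.12, 4.42 and 4.65, and these 4 were kept through their higher arrays. SPINT1, PARD6B, LLGL1, OCLN, EPCAM and CLDN12 were higher by 1.03 to 1.83. Other probe sets of several of these genes differed less, at 0.05 for CDH1, 0.25 for SPINT1 and 0.27 and -0.17 for LLGL1. With the mean of probe sets CDH1 differed by 1.94 and LLGL1 by 0.54. In that setting 21 of 35 members kept were above 0 and 14 below, with a median of 0.24. By the brightest probe set, the 2 members at least 2-fold lower were MYO5B at -1.597 and NECTIN3 at -1.41. Vector, transfection, culture and the handling of the arrays cannot be told apart in this difference.

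**Figure D4:**
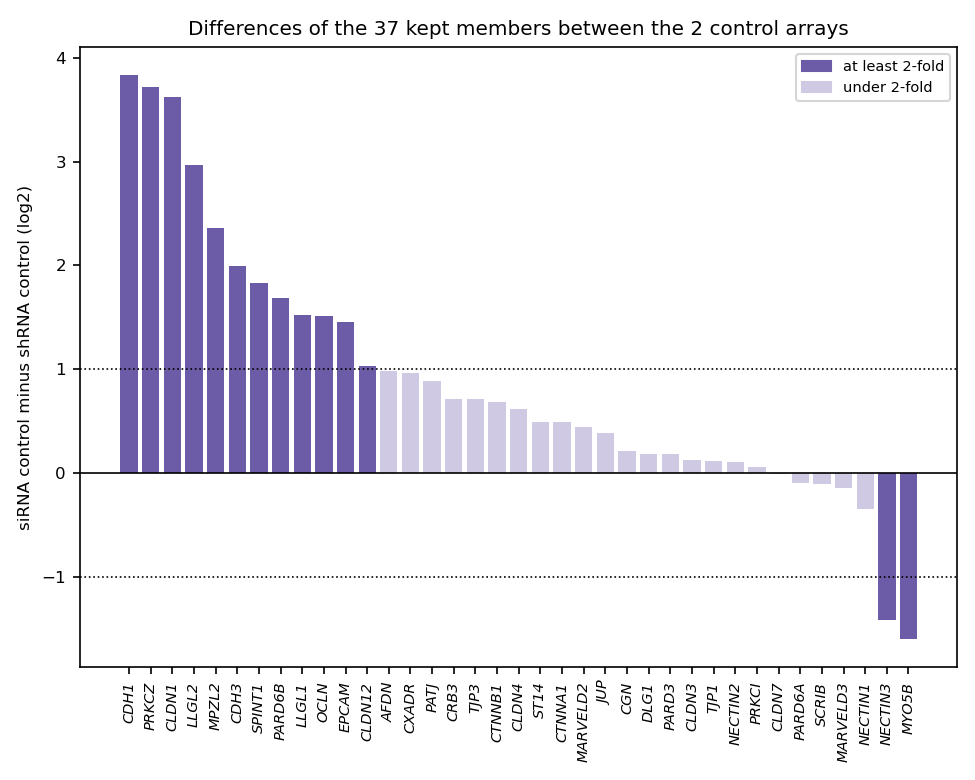
Difference between the siRNA control and the shRNA control (y axis, log2) for the 37 genes kept, in falling order, with dark bars at 2-fold or more and dotted lines at 2-fold. CDH1, PRKCZ and CLDN1 lead with 3.62 or more, and only NECTIN3 and MYO5B are 2-fold lower in the siRNA control.

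Large differences in the stable pair were also set beside the siRNA arrays. Of the 7 members at 2-fold in the stable pair, 5 had the shRNA control, and not the shRNA ZEB2 knockdown, as the array more distant from the siRNA mean (EPCAM, PATJ, PRKCZ, LLGL2 and MYO5B). CLDN7 and CLDN12 were the other 2, and in these the knockdown was the distant array. Among all 674 genes at 2-fold in that pair, the share with the control farther was 73.7%. With the siRNA control in place of the shRNA control, an arrangement tried once the values were known, 0 members were 2-fold higher in the shRNA ZEB2 knockdown, against 3.14% of all genes, and 11 were 2-fold lower, or 29.7%, against 8.17%. The median was -0.40, against -0.087 over all genes. This contrast includes the gap between the 2 controls, so ZEB2 loss cannot be told apart in it from vector, transfection and culture. Of the 23 members within 2-fold between the controls, also counted after the values were seen, 2 were past 2-fold in the stable pair, PATJ higher and CLDN7 lower, or 8.7%, against 1.79% of 12705 such genes. In the transient pair 0 of the 23 were, against 0.0708%. PATJ was counted by its brightest probe set. Its others at the filter level differed by -0.05, 0.04 and 0.28 in the stable pair, and CLDN7 has 1 probe set.

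Probe sets of the same gene disagreed most between the controls. Among the 25 members with at least 2 probe sets at the filter level, the differences of a gene's probe sets spanned 2-fold or more in 14 between the controls, or 56%, in 4 in the stable pair and in 1 in the transient pair. Over 7584 such genes in all, the shares were 37.1%, 6.51% and 1.36%. CTNNA1 shows it: 1 probe set read 11.29 and 10.79 on the shRNA knockdown and control arrays, and 6.54 and 6.46 on the siRNA ones. The other 4 CTNNA1 probe sets were 0.22 to 0.61 higher in the siRNA control, and that probe set had a difference of -4.33. NECTIN2 had 2 probe sets at -2.83 and -2.95, beside 2 at 0.11 and -0.44. PRKCI had 1 at -2.03 and 2 at 0.06 and -0.22, and the DLG1 probe sets at the filter level ran from -1.92 to 1.69. For PARD6B the brightest probe set was 1.68 higher in the siRNA control, and the other 2 were at -0.53 and -1.17. CLDN1 and OCLN kept 1 direction over all their probe sets, at 2.52 and 3.62 for CLDN1 and 1.24 to 1.51 for OCLN. What sets these probe sets apart was not tested.

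**Figure D5:**
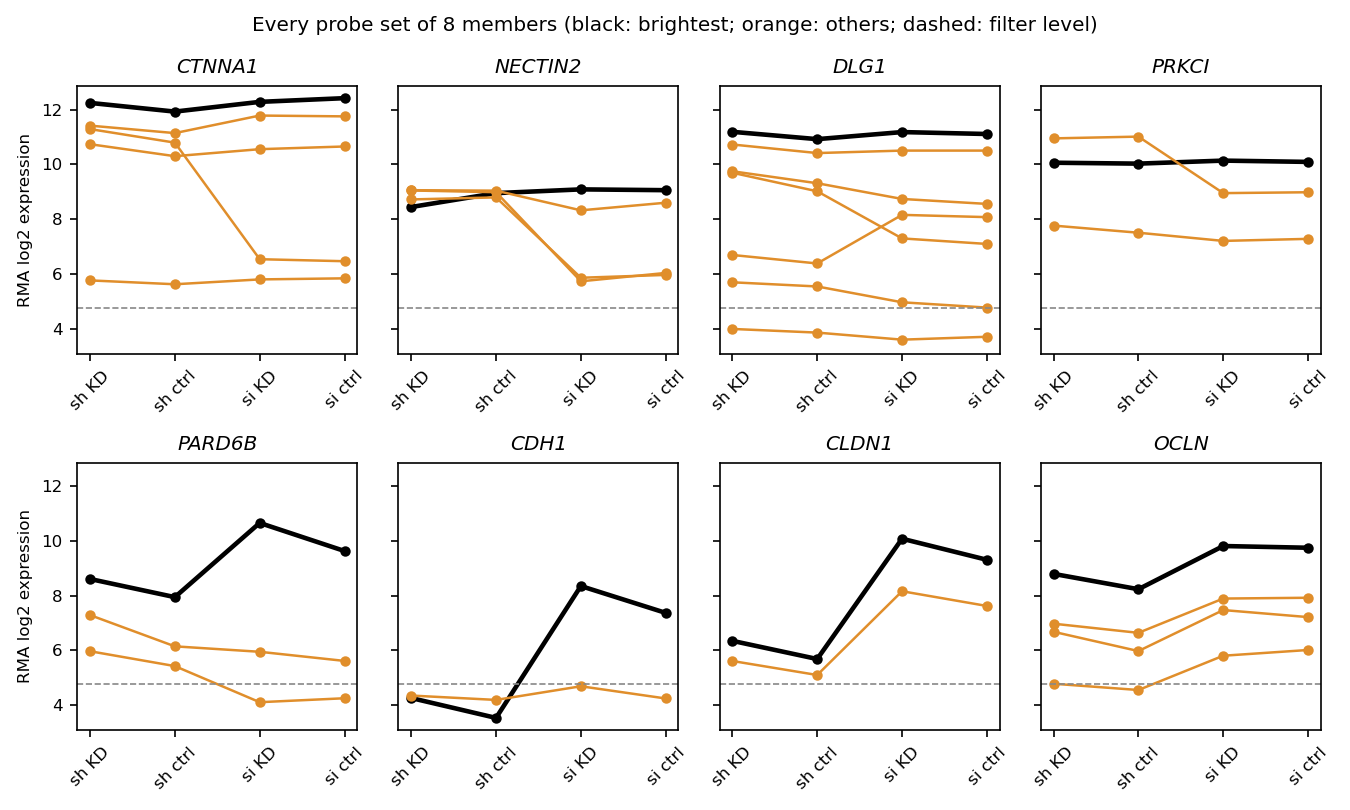
RMA log2 level (y axis) of every probe set of 8 members on the shRNA knockdown, shRNA control, siRNA knockdown and siRNA control arrays (x axis), in black for the brightest and orange for the others, with a dashed line at the filter level. Some probe sets of CTNNA1, NECTIN2, DLG1 and PRKCI are lower on both siRNA arrays while others of the same gene stay level, and all probe sets of CLDN1 and OCLN are higher there.

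Because ZEB proteins bind E-boxes, the promoter windows of RefSeq (GRCh38.p14, 250 bases before to 50 after the gene start) were searched for CACCTG, whose other strand reads CAGGTG. Windows were matched by symbol for 25 of the 42 genes. CDH1, EPCAM, MPZL2 and PARD6B were not among them, so CLDN1 is the only one searched of the 5 genes 1.5-fold higher in both knockdowns. Of these, 9 held at least 1 match on either strand, or 36%, against 20.6% of 27305 promoters of the same length. The shorter core CACCT, or AGGTG, which every such E-box contains, was in 16 of the 25, or 64%, against 51.5% of all. CRB3 held 5 matches, AFDN 4, PATJ and MYO5B 3 each, and CLDN3, OCLN, TJP1, PARD6A and DLG1 1 each. Below are the 250 bases before the start, 5′ to 3′ on the gene's strand, of the 2 polarity genes and of the motor gene with several matches, and of CLDN1, which was higher in both knockdowns. Capitals mark the E-box letters.
CRB3, chr19:6464021-6464270, + strand: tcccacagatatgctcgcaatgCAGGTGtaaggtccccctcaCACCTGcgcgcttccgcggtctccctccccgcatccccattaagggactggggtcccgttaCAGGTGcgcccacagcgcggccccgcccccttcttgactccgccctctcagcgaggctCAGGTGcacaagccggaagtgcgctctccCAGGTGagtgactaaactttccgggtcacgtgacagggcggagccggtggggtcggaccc
PATJ, chr1:61742230-61742479, + strand: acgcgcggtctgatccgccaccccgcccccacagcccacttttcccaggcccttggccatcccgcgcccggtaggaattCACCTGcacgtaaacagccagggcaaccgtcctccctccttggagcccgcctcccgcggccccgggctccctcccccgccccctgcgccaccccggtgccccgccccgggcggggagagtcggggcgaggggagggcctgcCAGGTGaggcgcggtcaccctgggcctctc
MYO5B, chr18:50195148-50195397, - strand: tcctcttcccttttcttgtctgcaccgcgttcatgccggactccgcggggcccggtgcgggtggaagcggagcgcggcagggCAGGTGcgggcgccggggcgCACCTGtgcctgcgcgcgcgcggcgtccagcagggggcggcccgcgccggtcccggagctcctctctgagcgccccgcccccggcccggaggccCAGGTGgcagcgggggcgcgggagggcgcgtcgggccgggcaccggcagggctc
CLDN1, chr3:190322447-190322696, - strand: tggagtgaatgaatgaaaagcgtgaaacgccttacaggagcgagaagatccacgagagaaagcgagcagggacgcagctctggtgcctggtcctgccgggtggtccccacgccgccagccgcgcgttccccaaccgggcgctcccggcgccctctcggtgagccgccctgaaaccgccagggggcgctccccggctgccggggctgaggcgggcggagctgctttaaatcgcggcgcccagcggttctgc
The matches before the start begin at positions -228, -208, -147, -89 and -60 relative to the start in CRB3, at -171 and -30 in PATJ, and at -168, -148 and -54 in MYO5B. Set beside the arrays, CRB3 differed by -0.15 and 0.36 in the stable and transient pairs, PATJ by 1.27 and 0.54, and MYO5B by -1.53 and 0.09. AFDN, whose bases are not printed, differed by -0.03 and 0.08. The genes with 1 match each differed by -0.36 to 0.56 in the stable pair and by 0.02 to 0.19 in the transient pair. CLDN1, with no match in these letters, differed by 0.66 and 0.77. A match is a run of letters in this window and no measured binding.

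Other genes of the same structures were taken from 4 further lists that hold no member. Of 117 such genes, 84 were kept, and in the stable pair 3 of them lay past 2-fold upward, or 3.57%, against 2.39% of all genes, and 6 past 2-fold downward, or 7.14%, against 2.08%. In the transient pair 0 did. Their medians were -0.024 in the stable pair and -0.003 in the transient pair, close to those of all genes. The 15 other adherens junction genes had 1 at 2-fold, PLEKHA7, which anchors microtubules at the junction. PLEKHA7 read 7.18 in the shRNA ZEB2 knockdown, against 5.55 in the shRNA control, and 9.35 in the siRNA ZEB2 knockdown, against 9.68 in the siRNA control. Among 23 other tight junction genes, the paracingulin gene CGNL1 (-1.22) and the adhesion protein genes ESAM (-1.41) and CLMP (-1.57) were lower in the stable pair. In the transient pair these 3 differed by 0.03, -0.05 and -0.49.

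The 26 other polarity genes included TIAM1, an activator of the GTPase Rac, at 1.26 and -0.36 in the stable and transient pairs. LIN7C, a scaffold bound to the Crumbs complex, differed by -1.21 and 0.25, and the polarity kinase gene MARK1 by -1.02 and -0.09. Among 20 other epithelial regulators and surface proteins, the transcription factor gene KLF5 differed by 1.195 and 0.10, and EHF, of the ETS family, by -1.40 and -0.32. MAL2, an apical trafficking protein, was the only gene of the 84 at 1.5-fold in the transient pair. It read 12.22 in the siRNA ZEB2 knockdown, against 11.43 in the siRNA control, and 6.13 in the shRNA ZEB2 knockdown, against 5.58 in the shRNA control. MAL2 was named after its values were seen, and like CDH1 and CLDN1 it was low on both shRNA arrays and high on both siRNA arrays.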

How the data were processed

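Total RNA of 4 MDA-MB-231 cultures was hybridised to 1 array each, and groups were taken from the sample titles. The authors deposited 1 log2 value for each probe set and array, and the submitters' processing notes name RMA and affy. Versions are not given in the sources used here. Such values give the arrays nearly 1 distribution (array medians 5.34 to 5.37) and RMA compresses differences of dim probe sets. The number of arrays limits the precision. Columns of other series numbered 0.

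Of 54675 probe sets, 41097 carried 1 symbol, 1801 several and 11777 none in the table used here. Names were checked against RefSeq gene identifiers, and 0 symbols needed updating. The brightest probe set by mean stood for its gene, which was kept if its highest value reached the 40th percentile of all values, 4.77. Counts use 2-fold, with 1.5-fold and 3-fold as alternatives.

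The only test was limma 3.58.1 in R 4.3.3 (lmFit, eBayes with intensity trend, 2-sided, Benjamini-Hochberg adjustment over 15082 genes, threshold 0.05), with the method as a block. The limma step was first run on simulated data with large changes, little spread and the same change in both methods. That run checks the code and does not show what the test can detect on these arrays. The labels name no parallel cultures. The p-values reflect the gap between methods, moderated by eBayes over all genes, and no spread between repeated cultures. Other settings were the mean of all probe sets, no cross-hybridising probe sets, 3 other filters, median centring, quantile normalization, cyclic loess, and limma without block, without trend or robust.

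Members with a 2-fold difference, with 1.5-fold the same way in both knockdowns, or listed as core parts of the junctions were given on every array. The members and lists were chosen with earlier results of these data known. Figures were drawn with matplotlib 3.10.9.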

Additional observations from a re-analysis of the deposited data

Results flagged for a closer look

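In 4 members the differences of the 2 pairs had opposite signs, with a gap of at least 1 log2 unit. LLGL2 had the widest gap, 1.95, from 1.52 in the stable (shRNA) pair and -0.43 in the transient (siRNA) pair. Its shRNA control value, 4.12, was under the filter level, and its other probe set differed by -0.04 and -0.61, with the same sign in both. For MYO5B the gap was -1.62 (-1.53 and 0.09), for CLDN7 -1.38 (-1.25 and 0.13) and for CDH3 1.125 (0.59 and -0.54). With 1 array per group, none of these gaps was tested.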

How the results depend on the processing

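Averaging every probe set of a gene, the transient (siRNA) pair had 0 members at 2-fold in place of 2, 2 members (EPCAM and CLDN1) were 1.5-fold higher in both knockdowns in place of 5, and the control median was 0.24 in place of 0.62. Without a filter that median was 0.49. In the stable (shRNA) pair, averaging left 2 members past 2-fold upward in place of 4, and 3 downward as before. At 1.5-fold the stable (shRNA) pair had 12 members and the transient (siRNA) pair 5. At 3-fold they had 1 and 0, and the controls 9 in place of 14. At 2-fold 0 members were shared by both knockdowns. With the siRNA control as the reference of the stable (shRNA) pair, 11 members were at 2-fold in place of 7 and the median was -0.40 in place of 0.093. That change of reference brings in the gap between the controls and is not a matter of processing alone. Over members within 2-fold between the controls, 2 were at 2-fold in the stable (shRNA) pair and 0 in the transient (siRNA) pair. Single values changed sign near 0 for CLDN12 in the transient (siRNA) pair (0.026 after cyclic loess, -0.0083 as reported). The same held for CLDN7 between controls (0.017 after median centring, -0.0064 as reported). PARD6B between controls moved much further, from 1.68 to -0.0074 with the mean of probe sets. Its probe sets other than the brightest differed there by -0.53 and -1.17. Why the probe sets of PARD6B differ was not tested. Of 80 such summary values, 66 were called the same. This meant a count within a 1.5-fold ratio, or a median that moved by under 0.1 without changing sign. A count called the same could thus still move, as from 14 at 2-fold to 21 at 1.5-fold between the controls. Of 381 values of 16 single members, 355 moved by under 0.1, 23 moved further and 3 changed sign. The filters and the removal of cross-hybridising probe sets leave the brightest probe set of these members unchanged, so those settings could not move their values. All 23 that moved further came from averaging probe sets, as did the PARD6B change of sign. limma called 0 members under all 11 alternatives run. No paired analysis was possible because the groups share fewer than 2 replicate numbers. The block in limma is the knockdown method, which sets each knockdown against its own control, and without it limma also called 0 members.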
